A study of Mus musculus with 6 samples.

Results

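The Atp13a and Atp8b genes encode P-type ATPases, membrane pumps that pass through a phosphorylated state as they use ATP. They were taken here as all probe sets whose platform gene symbol was exactly Atp13a1 to Atp13a5 or Atp8b1 to Atp8b5. That gave 19 of the 45037 probe sets tested and 9 of the 18193 genes with a probe set of 1 symbol. Of the 10 genes sought, 9 were thus measured, since no probe set carried the symbol Atp8b5 and that gene was not analysed here. The families were picked from earlier results of these arrays: the large differences of Atp13a5 and Atp8b4 between genotypes drew attention to them. Their values are therefore a description: no p-value is given for them, and their errors and calls support nothing. The other 7 genes were taken as their paralogs, whatever their values.

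The arrays came from whole testis of mice aged 5 weeks, 3 from Phf13 knockout mice and 3 from wild-type mice. The product of Phf13 binds methylated histone H3 through its PHD finger. The sources used here do not give the strain, how Phf13 was disrupted or whether each array came from another animal, so errors and p-values cover the spread between arrays, which may be technical. Phf13 itself stood at 6.71, 6.60 and 6.55 in knockout, against 9.55, 9.47 and 9.56 in wild type, on the deposited log2 scale. Where its probes lie relative to the disrupted part is not given either. The number of arrays limits the precision of every value.

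The Atp13a genes form the P5 class. Atp13a1 sits in the endoplasmic reticulum and removes misplaced membrane helices, and Atp13a2 and Atp13a3 move polyamines out of lysosomes and endosomes. The Atp8b genes belong to the P4 class, the lipid flippases, which carry phospholipids from the outer to the cytosolic leaflet of a membrane, mostly together with a small CDC50 subunit encoded by a Tmem30 gene. In the mouse, Atp8b3 and Atp8b5 are known as testis genes of the acrosome, the enzyme cap on the sperm head.

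The upstream sequences of Atp13a5 and Atp8b4, which were far higher in knockout, are shown with those of paralogs at which no such difference was seen. They are the 250 bases before the listed transcript start, from RefSeq on GRCm38.p6, 5′ to 3′ on the strand of the gene. Capitals mark each CG dinucleotide. They are shown because the histone mark read by PHD fingers such as that of Phf13 is known to lie mainly at promoters rich in CG.
Atp13a5 (chr16:29378733-29378982, minus strand): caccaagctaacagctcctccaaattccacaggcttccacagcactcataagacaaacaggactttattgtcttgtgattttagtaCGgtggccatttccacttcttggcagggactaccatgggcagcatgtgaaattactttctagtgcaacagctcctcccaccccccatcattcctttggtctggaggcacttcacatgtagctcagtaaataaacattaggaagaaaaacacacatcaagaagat
Atp13a4 (chr16:29541484-29541733, minus strand): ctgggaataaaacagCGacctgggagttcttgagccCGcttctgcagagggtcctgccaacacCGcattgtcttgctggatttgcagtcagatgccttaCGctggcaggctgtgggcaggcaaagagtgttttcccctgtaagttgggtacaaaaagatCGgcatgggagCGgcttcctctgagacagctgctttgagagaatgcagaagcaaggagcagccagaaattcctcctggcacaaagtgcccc
Atp8b4 (chr2:126491554-126491803, minus strand): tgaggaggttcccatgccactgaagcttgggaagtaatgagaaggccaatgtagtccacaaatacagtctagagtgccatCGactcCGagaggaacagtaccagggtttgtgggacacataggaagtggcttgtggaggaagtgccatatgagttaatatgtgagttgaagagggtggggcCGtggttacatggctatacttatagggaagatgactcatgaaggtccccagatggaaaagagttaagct
Atp13a2 (chr4:140986671-140986920, plus strand): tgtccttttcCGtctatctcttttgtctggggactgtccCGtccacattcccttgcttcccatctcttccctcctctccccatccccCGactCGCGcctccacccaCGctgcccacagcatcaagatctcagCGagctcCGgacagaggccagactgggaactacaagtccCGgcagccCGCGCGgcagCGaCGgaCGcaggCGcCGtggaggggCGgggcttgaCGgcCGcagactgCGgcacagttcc

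The Atp13a5 window held 1 CG and the Atp8b4 window 3, the lowest counts among the 10 windows available for 8 of the genes. Over all 32851 windows in the same table the median was 6, with quartiles of 2 and 16, while 7.9% had fewer than the Atp13a5 window and 29.0% fewer than the Atp8b4 window. Atp13a4 had 6 in the window shown and 9 in another. The counts were 13 for Atp8b3, 14 for Atp13a1, 19 in each window of Atp8b2, 21 for Atp13a2 and 10 for Atp8b5. The GC box GGGCGG, searched on both strands, was in 7 of the 10 windows and in 32.7% of all windows. It was in none of the windows of Atp13a5 and Atp8b4, in 1 of those of Atp13a4 and in every window of Atp13a1, Atp13a2, Atp8b2, Atp8b3 and Atp8b5. TATAAA, in 12.4% of all windows on either strand, was in none of the 10. CCAAT, searched likewise and present in 33.8% of all windows, was in that of Atp8b4 and in 1 window each of Atp13a4 and Atp8b2. No histone mark was measured here, and no RefSeq window was read for Atp13a3 or Atp8b1. Some windows are not upstream of the outermost annotated start of their gene. That of Atp8b4 lies inside the gene, which reaches position 126500669 of chromosome 2. The Atp13a2 window, the Atp13a4 window shown, the Atp8b5 window and 1 window of Atp8b2 also lie inside their genes. The windows of Atp13a5 and Atp8b3 overlap the ends of theirs in part: that of Atp13a5 begins at 29378733, and the gene reaches 29378766. The counts are thus those of the listed starts, and other starts may be used in testis.

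Among the P5 genes, Atp13a5 stood out. Its probe set 1436411_at had 6.67, 6.27 and 6.17 in knockout, against 2.54, 2.31 and 2.61 in wild type. The lowest knockout array was thus far above the highest wild-type array. The means were 6.37 ± 0.26 in knockout and 2.49 ± 0.16 in wild type (SD, n = 3 each), and the difference, knockout minus wild type, was 3.88 (SE 0.15), a 14.8-fold higher level. The other probe set of the gene, 1439172_at, had 5.38, 4.90 and 5.30 in knockout, against 3.30, 2.46 and 2.95 in wild type. It also separated the genotypes, with means of 5.19 ± 0.26 in knockout and 2.90 ± 0.42 in wild type (SD, n = 3 each). Its difference was 2.29 (SE 0.21), smaller than that of 1436411_at. In wild type both probe sets lay below the lower quartile of the arrays, which ran from 3.66 to 3.75, and in knockout 1436411_at lay above the array medians of 5.22 to 5.28. No background level is part of the deposited values, so the fold from such a dim level is uncertain.

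Atp13a4, the paralog beside Atp13a5 on chromosome 16, did not pass the test. Its probe set 1438707_at had 5.76, 5.79 and 5.71 in knockout, against 5.38, 5.54 and 5.63 in wild type. The groups did not overlap, but the difference was 0.24 (SE 0.10, 95% interval 0.02 to 0.45), with an adjusted p = 0.302 from the limma fit to the whole table. The other probe set of Atp13a4, 1453673_at, had 2.33, 2.47 and 2.61 in knockout and 2.25, 2.39 and 2.76 in wild type. These groups overlapped, with a difference of 0.00 (SE 0.14; limma adjusted p = 0.992).

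Atp13a3, on the same chromosome and known as a polyamine transporter of endosomes, had 3 probe sets, and none passed. Of these, 1442145_at had 7.38, 7.38 and 7.34 in knockout, against 7.52, 7.45 and 7.39 in wild type. The knockout arrays lay just below the wild-type arrays, by 0.09 on average (95% interval -0.28 to 0.10; limma adjusted p = 0.661). The probe set 1434513_at varied most among the 15 probe sets of the other 7 genes: 5.92, 6.47 and 6.65 in knockout, against 6.20, 6.42 and 6.16 in wild type, an SD of 0.38 in knockout. Its difference was 0.09 (SE 0.18), from -0.39 among the 3 arrays with the lower title codes to 0.40 among the 3 with the higher codes. The third, 1443868_at, differed by 0.02 (SE 0.11).

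Atp13a2, a lysosomal polyamine exporter whose human form is mutated in a Parkinson's syndrome, had 8.06, 8.04 and 8.02 on 1452746_at in knockout, against 7.95, 7.85 and 7.93 in wild type. The groups did not overlap, and the difference of 0.13 (95% interval -0.06 to 0.32) did not pass (limma adjusted p = 0.490). Its probe set 1428340_s_at, whose suffix marks probes shared with other transcripts, differed by 0.11 (SE 0.10), and 1452747_at by -0.07 (SE 0.10). Atp13a1, the pump of the endoplasmic reticulum, had 7.98, 8.07 and 8.09 in knockout, against 8.34, 8.02 and 8.11 in wild type, a difference of -0.11 (95% interval -0.35 to 0.13; limma adjusted p = 0.658). Its groups overlapped, and the high value was wild type 1.

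Among the flippase genes, Atp8b4 was the one far apart, on 1 of its probe sets. The probe set 1439814_at had 7.08, 7.04 and 7.41 in knockout, against 4.38, 4.92 and 4.22 in wild type. All knockout arrays were above all wild-type arrays. The means were 7.18 ± 0.20 in knockout and 4.51 ± 0.37 in wild type (SD, n = 3 each), and the difference was 2.67 (SE 0.18), a 6.36-fold higher level. The other probe set, 1445522_at, had 2.95, 2.93 and 2.86 in knockout, against 3.13, 2.70 and 3.14 in wild type. It overlapped and differed by -0.08 (SE 0.13), and on every array it lay below the lower quartile. Which part of the transcript each probe set covers was not analysed here.

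Atp8b3, the acrosomal flippase gene, lay above the upper quartile of the arrays (7.22 to 7.35) on both of its probe sets. The probe set 1438604_at had 12.21, 12.00 and 11.85 in knockout, against 12.32, 12.21 and 11.98 in wild type, and 1419713_at had 9.53, 9.58 and 9.27 in knockout, against 9.55, 9.67 and 9.74 in wild type. The groups overlapped on both, with differences of -0.15 (95% interval -0.44 to 0.14; limma adjusted p = 0.612) and -0.19 (95% interval -0.45 to 0.06; limma adjusted p = 0.443). A loss of Atp8b3 beyond 0.45 on the log2 scale lies outside both intervals.

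Atp8b2, known from human cells as a phosphatidylcholine flippase of the plasma membrane, had 8.35, 8.35 and 8.38 on 1434026_at in knockout, against 8.23, 8.14 and 7.95 in wild type. The groups did not overlap. The difference was 0.25 (SE 0.10, 95% interval 0.03 to 0.48), the largest of the 15 probe sets of the other 7 genes, with the smallest adjusted p among them (limma adjusted p = 0.291). Its other probe sets differed by 0.04 (SE 0.12) and 0.01 (SE 0.12) and overlapped. Atp8b1, the flippase of bile canaliculi whose human form is mutated in an inherited cholestasis, had 3.96, 4.05 and 3.89 in knockout, against 3.61, 3.85 and 4.07 in wild type, overlapping groups with a difference of 0.12 (95% interval -0.16 to 0.41; limma adjusted p = 0.679).

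**Figure D1:**
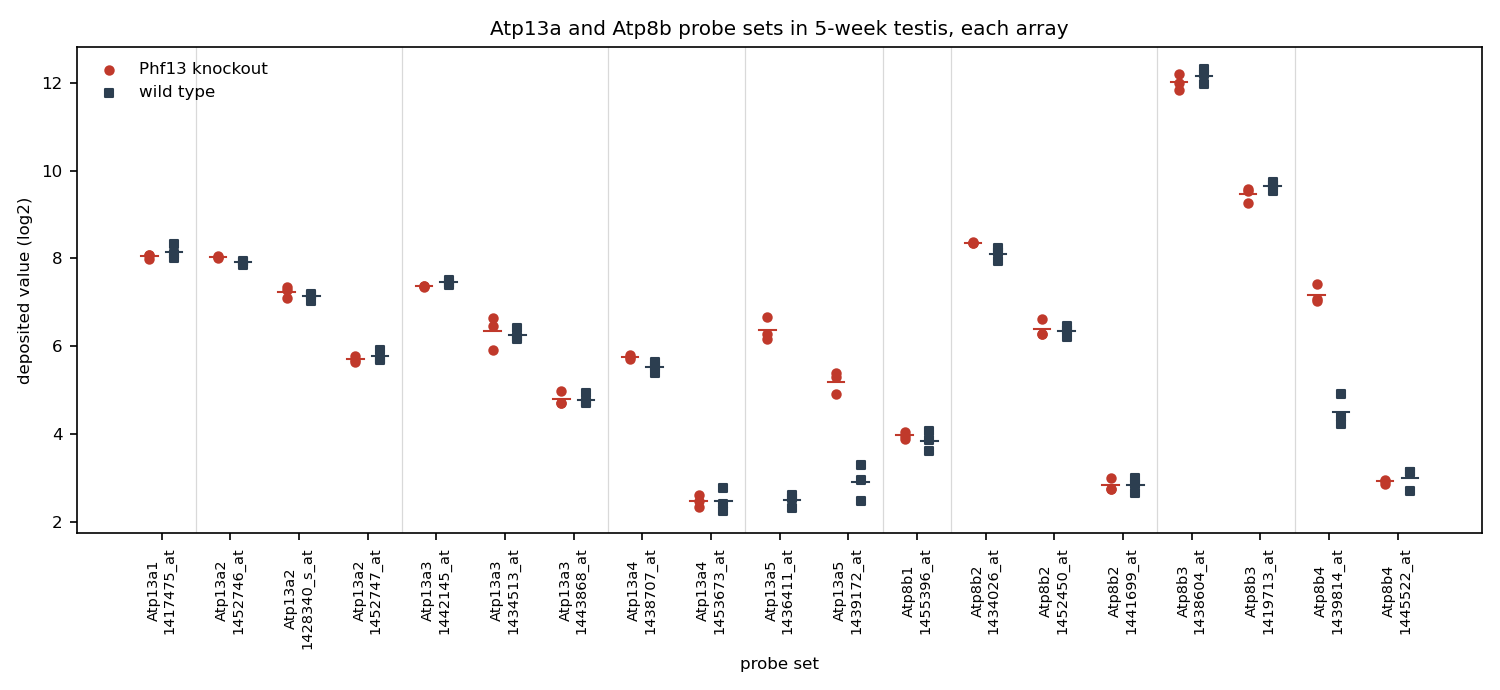
Deposited log2 value (vertical axis) of each of the 19 probe sets on each array, with circles for the 3 Phf13 knockout arrays left of squares for the 3 wild-type arrays and a line at each group mean. Both probe sets of Atp13a5 and 1439814_at of Atp8b4 stand apart between genotypes, with 6.37 against 2.49 for 1436411_at. Levels of different probe sets cannot be set against each other.

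Counted over the families, 3 of 19 probe sets had an adjusted p under 0.05, all higher in knockout: both of Atp13a5 and 1 of Atp8b4. Among all probe sets 0.0999% passed in either direction, 0.0555% as higher and 0.0444% as lower. With the 3 runs of consecutive title codes as a block in the fit, 1 of these 3 was under the threshold, 1436411_at of Atp13a5. The first run holds wild type 1 alone, so that array adds nothing to the difference in this fit. As these probe sets are the ones that brought the families here, nothing is read from either count. Of the 15 probe sets of the other 7 genes, 0 passed, 2 had an unadjusted p under 0.05, and 4 had groups that did not overlap, against 15.1% and 19.3% of all probe sets. Their differences were above 0 for 10 and below 0 for 5, with a median of 0.02, while the median over all probe sets was 0.00. All their 95% intervals lay between -0.45 and 0.50. Because each probe set binds with its own strength, the levels of paralogs cannot be ranked from these arrays, and in whole testis more RNA per cell and more cells of a type cannot be told apart.

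**Figure D2:**
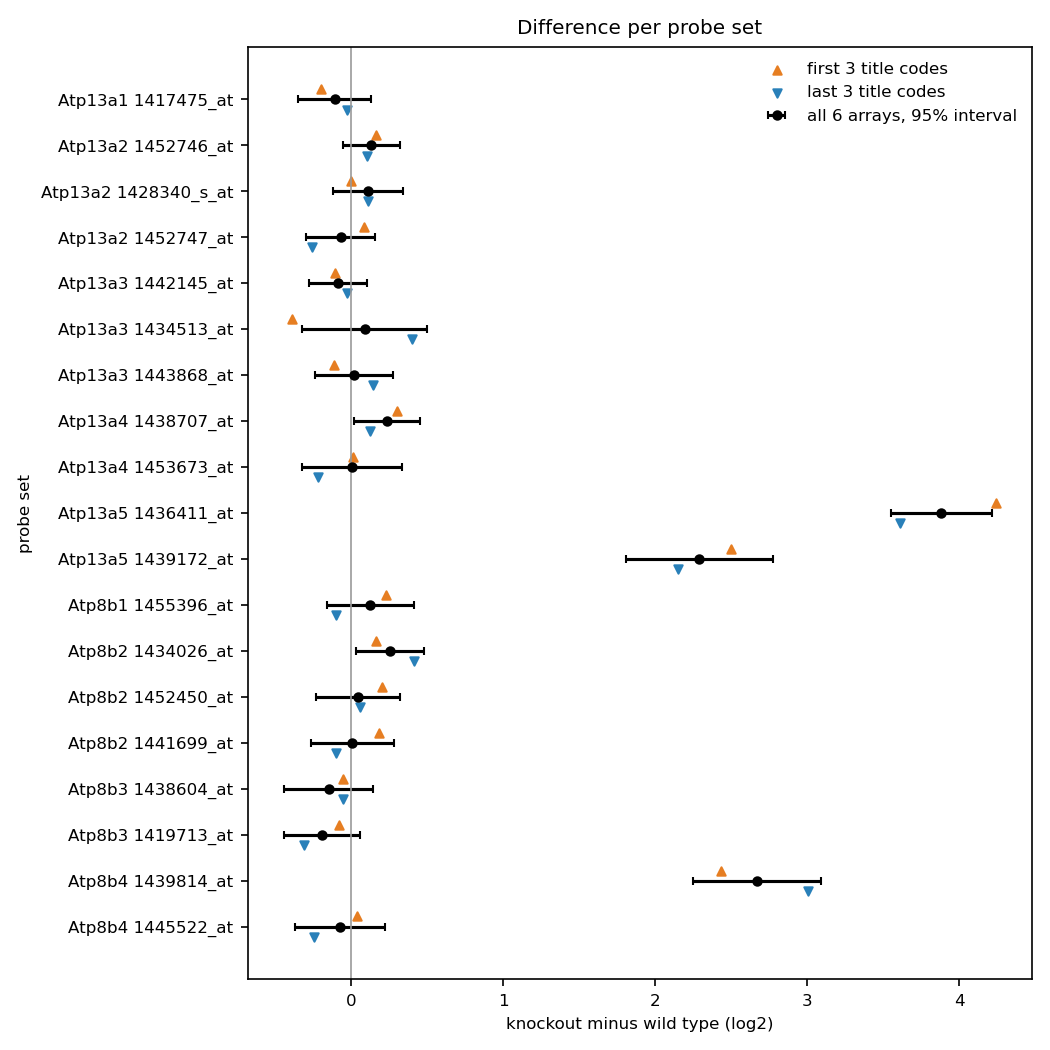
Difference between knockout and wild type (horizontal axis, log2) for each of the 19 probe sets, with its 95% interval over all 6 arrays and, as triangles, the differences among the 3 arrays with the lower and the 3 with the higher title codes. Those of Atp13a5 at 3.88 and 2.29 and of Atp8b4 at 2.67 lie far from the rest, which are within 0.25 of 0. The intervals of Atp13a5 and Atp8b4 show the spread between arrays and are no test, as these genes were chosen for their differences.

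The arrays also differ along their title codes. The 18S ribosomal RNA control probe sets averaged 9.87 and 9.69 in knockout and 10.71 in wild type on the 3 arrays whose sample titles carry the higher consecutive codes, and 12.03 in knockout and 12.34 and 12.67 in wild type on the other 3. Each of these sets holds both genotypes, and in each the control was lower in knockout. Inside the sets, 1436411_at of Atp13a5 differed by 3.61 among the higher codes and by 4.25 among the lower codes, and 1439172_at by 2.15 and 2.50. The Atp8b4 probe set 1439814_at differed by 3.00 and 2.43. In both sets the knockout values were above the wild-type values for all 3 of these probe sets. Relative to their size, some of the smaller differences were less even. The probe set 1434026_at of Atp8b2 differed by 0.42 among the higher codes and 0.17 among the lower. In the same order, 1452747_at of Atp13a2 differed by -0.26 and 0.08, and 1455396_at of Atp8b1 by -0.10 and 0.23. Others were even, such as 1438604_at of Atp8b3, with -0.055 in each set.

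Genes beside Atp13a5 and Atp8b4 on their chromosomes were not called. For each, the nearest 5 genes on either side with a probe set of 1 symbol were taken in RefSeq order, each on its probe set with the highest mean. Around Atp13a5, 0 of 10 passed, against 0.0999% of all probe sets, and the differences ran from -0.07 for Gm20319 to 0.36 for Hes1, a transcriptional repressor of the Notch pathway (SE 0.14; limma adjusted p = 0.295). Of these 10, 3 had an unadjusted p under 0.05, which 15.1% of all probe sets reached: Hes1, Atp13a4 and the growth factor family gene Fgf12, which differed by 0.24 (SE 0.10). Opa1, which encodes a mitochondrial fusion protein, differed by 0.01, and Plaat1, the nearest measured gene on the other side, by -0.03. Around Atp8b4 0 of 10 passed either, with differences from -0.18 for Usp8, a deubiquitinase, to 0.25 for A630026N12Rik, and 0 had an unadjusted p under 0.05. Its nearest measured neighbours, the fatty acid transporter gene Slc27a2 and the gene Dtwd1, differed by 0.04 and -0.02.

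**Figure D3:**
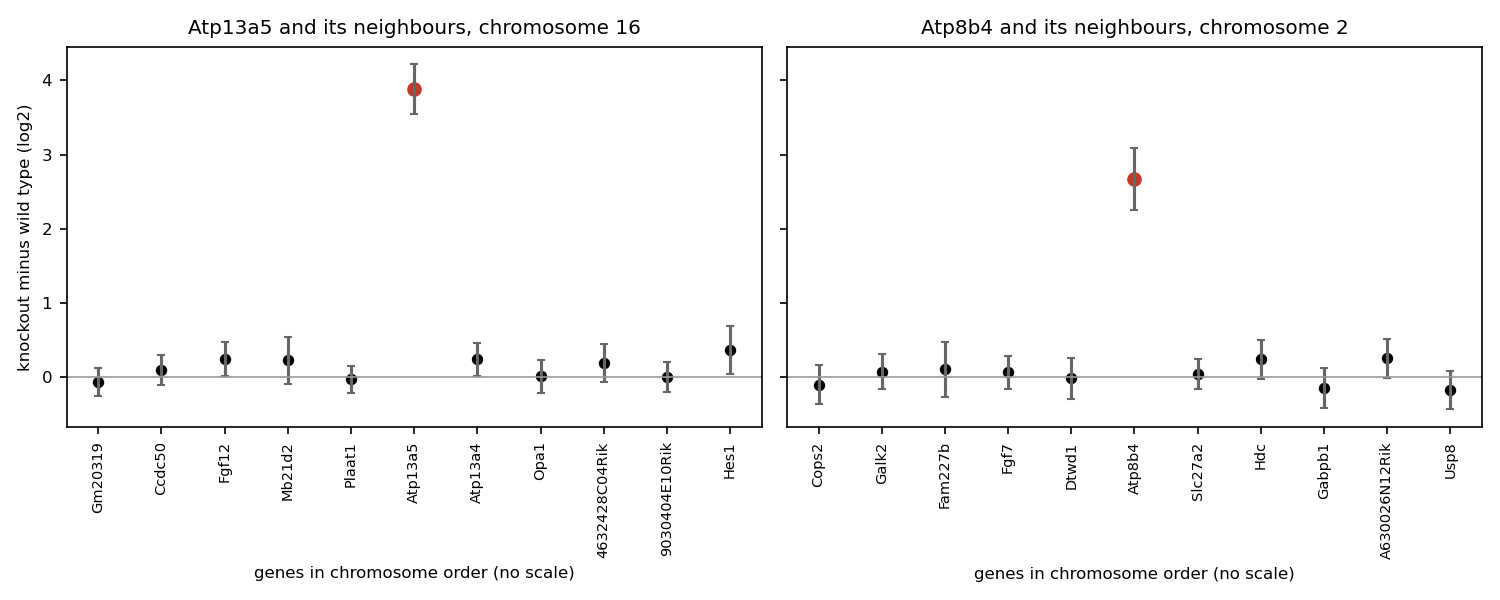
Difference between knockout and wild type (vertical axis, log2, with 95% intervals) for Atp13a5 and Atp8b4 (red) and the 5 measured genes on each side, in chromosome order without scale. The neighbours lie between -0.18 and 0.36, and the red points lie at 3.88 and 2.67.

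The genes whose values over the 6 arrays were most like those of Atp13a5 (1436411_at), among 1069 probe sets of other genes that spanned at least 1 log2 unit, were Slc24a2, a sodium and calcium exchanger gene (Pearson r = 0.995), Slc7a2, a cationic amino acid transporter gene (r = 0.992), the radial spoke gene Rsph3a (r = 0.990), the lysophosphatidic acid receptor gene Lpar1 (r = 0.986) and 4933404K08Rik (r = 0.986). For Atp8b4 (1439814_at) they were 4933404K08Rik (r = 0.991), Unc13c, known from synaptic vesicle priming (r = 0.982), Rsph3a (r = 0.981), the microtubule-associated gene Mtus2 (r = 0.969) and Atp13a5 (r = 0.969). These are descriptions: the points share 6 arrays in 2 genotypes, so any gene with a wide difference between genotypes ranks high. In Slc7a2, for one, the values were 4.90, 4.94 and 4.75 in knockout, against 3.73, 3.53 and 3.79 in wild type, a difference of 1.18.

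Other genes of the pathways were read from 9 lists, in which 70 of 81 genes were measured and 0 passed in either direction, against 0.0999% of all probe sets. At an unadjusted p under 0.05, which 15.1% of all probe sets reached, 9 were higher and 7 lower. These are genes, each read on its probe set with the highest mean, so the shares rest on unlike units. Nearest to the threshold was Arg2, the mitochondrial arginase that makes ornithine, a precursor of polyamines. It had 6.23, 5.80 and 6.43 in knockout, against 5.10, 4.96 and 4.98 in wild type. The groups did not overlap, and the difference was 1.14 (SE 0.15; limma adjusted p = 0.0501). It passed in 7 of 14 other fits, with adjusted p from 0.0188 to 0.274. The other polyamine genes stood closer to 0: the list of 11 measured genes had 6 above and 5 below, with a median of 0.05, and Smox, which oxidises spermine, differed by 0.24 (SE 0.11; limma adjusted p = 0.339).

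The other flippases lay slightly below 0. Of 9 measured P4 genes, 8 had a negative difference and 1 a positive one, with a median of -0.11. None was past the threshold, which 0.0999% of all probe sets passed. Atp11a, a phosphatidylserine flippase, had 7.81, 7.81 and 7.76 in knockout, against 8.18, 8.04 and 8.12 in wild type, a difference of -0.32 (SE 0.08; limma adjusted p = 0.208). Atp9a, of endosomes, differed by -0.26 (SE 0.09; limma adjusted p = 0.261). All 3 CDC50 subunit genes were below 0, with a median of -0.10. Tmem30c, the form found in testis, had 9.67, 9.73 and 9.77 in knockout, against 10.03, 10.04 and 9.91 in wild type, groups that did not overlap (difference -0.27, SE 0.09; limma adjusted p = 0.241). Tmem30a, the common subunit, differed by -0.06 (SE 0.09). The scramblases, which let lipids cross in both directions, had 5 of 7 genes above 0, with Plscr2 at 0.38 (SE 0.11; limma adjusted p = 0.220) and Ano6 at 0.38 (SE 0.13; limma adjusted p = 0.262). Plscr2 lay below the lower quartile on every array, at 2.91 to 3.26 in knockout and 2.63 to 2.79 in wild type. For Ano6, however, the difference was 0.67 among the arrays of the higher title codes and 0.06 among those of the lower.

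The pumps for metal ions also had no call, where 0.0999% of all probe sets had one. The copper pumps had differences of opposite sign, with Atp7a at 0.49 (SE 0.15; limma adjusted p = 0.238) and Atp7b at -0.32 (SE 0.12; limma adjusted p = 0.270). Atp7a differed by 0.76 among the arrays of the higher title codes and by 0.13 among those of the lower. Of 9 calcium pump genes 3 were above and 6 below 0, with a median of -0.06. The smallest p in that list belonged to Atp2b1, of the plasma membrane, at 0.26 (SE 0.11; limma adjusted p = 0.323; 0.48 among the higher codes and 0.11 among the lower), followed by Atp2c2, of the secretory pathway, at -0.33 (SE 0.19; limma adjusted p = 0.439; -0.64 among the higher codes and -0.15 among the lower). Of 7 measured sodium, potassium and proton pump genes, 3 were above and 4 below 0, with the subunit genes Atp1b2 at 0.31 (SE 0.11; limma adjusted p = 0.257) and Atp1b1 at 0.24 (SE 0.10; limma adjusted p = 0.305). Genes that insert proteins into the endoplasmic reticulum, read beside Atp13a1, had 6 of 14 above 0 and a median of -0.03, with Get1 at -0.20 (SE 0.08; limma adjusted p = 0.318) and Sgta at -0.28 (SE 0.13; limma adjusted p = 0.342). Lysosome genes, read beside Atp13a2, had 5 of 8 above 0 and a median of 0.13, with the channel gene Tmem175 at -0.32 (SE 0.10; limma adjusted p = 0.241) and the membrane protein gene Scarb2 at 0.35 (SE 0.11; limma adjusted p = 0.245). Scarb2 differed by 0.51 among the higher codes and by 0.11 among the lower, and the median of the lysosome list was 0.20 among the higher codes and -0.04 among the lower.

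**Figure D4:**
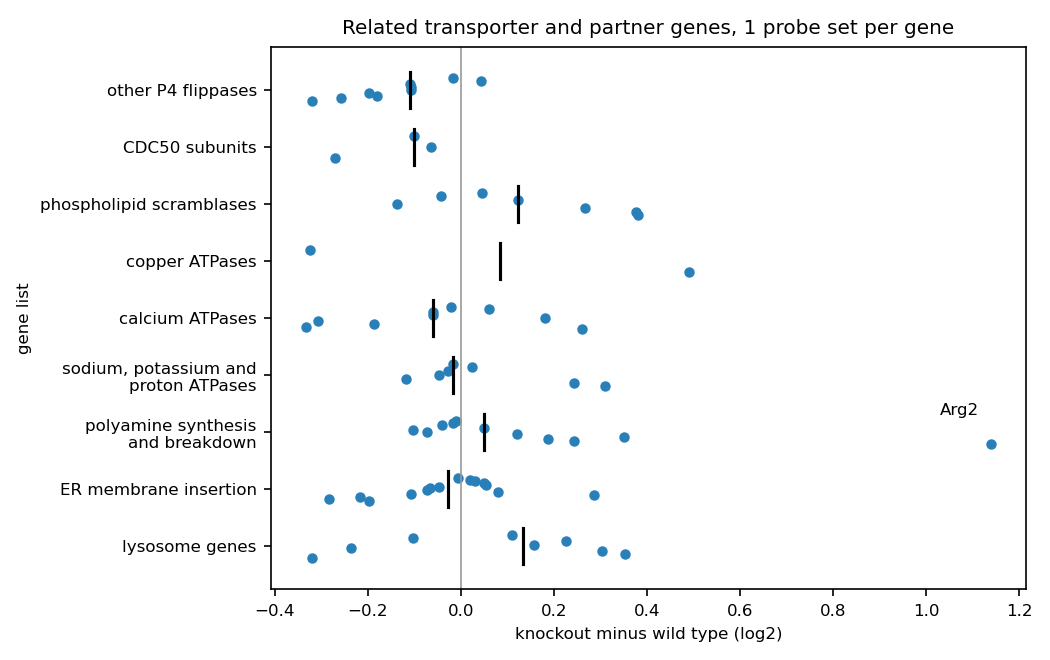
Difference between knockout and wild type (horizontal axis, log2) for each measured gene of the 9 lists of related pumps and partner genes, with a bar at each list's median. Arg2 stands apart at 1.14, and every other gene lies between -0.33 and 0.49.

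Of the markers of cell types in or near a testis, 0 passed the threshold, against 0.0999% of all probe sets, but some lists lay apart between genotypes. Over all probe sets 50.6% had a difference above 0. Sertoli cell markers were above 0 for 11 of 12 genes, with list means per array of 8.60 to 8.67 in knockout and 8.30 to 8.33 in wild type. Myoid and stromal markers were above 0 for 6 of 7, with 7.90 to 8.37 in knockout and 7.63 to 7.78 in wild type. In this list Tcf21 differed by 1.00, Dcn by 0.95, Pdgfra by 0.55 and Acta2 by 0.49. The groups overlapped for Tagln, Myh11 and Cnn1, with differences of 0.16, 0.11 and -0.11. Tcf21 differed by 1.385 among the higher title codes and by 0.335 among the lower, and Dcn by 1.205 and 0.50. Adipose markers were above 0 for 5 of 5, with 5.73 to 5.98 in knockout and 4.97 to 5.53 in wild type. Spermatocyte markers were below 0 for 5 of 6, with 10.06 to 10.12 in knockout and 10.25 to 10.38 in wild type. In these 4 lists the list means per array did not overlap between genotypes. The same held for the mast cell list and for some pathway lists. The other P4 flippases had 7.61 to 7.63 in knockout and 7.69 to 7.79 in wild type. The polyamine list had 8.73 to 8.86 in knockout and 8.58 to 8.66 in wild type. That gap rests largely on 1 gene, Arg2, which differed by 1.14, against -0.10 to 0.35 for the others of the list. The scramblases and the sodium, potassium and proton pumps were also apart. The means of the other pathway lists overlapped. Gaps between list means were thus seen in some marker lists and in some pathway lists. They were of unlike size, and their source was not tested. In the adipose list 1 gene differed far more than the rest: Fabp4, a fatty acid binding protein gene, by 2.21 (SE 0.53; limma adjusted p = 0.188), against 0.11 to 0.40 for the other 4, of which Cidec and Lep lay below the lower quartile.

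Pericyte markers, read because Atp13a5 is known from pericytes of the brain, were above 0 for 6 of 7, with 4.92 to 5.10 in knockout and 4.89 to 4.94 in wild type, a median difference of 0.11. Leukocyte markers were above 0 for 9 of 9, with 5.70 to 6.49 in knockout and 5.79 to 6.003 in wild type. Their direction was not even: the median difference of the leukocyte list was 0.35 among the arrays of the higher title codes and -0.14 among those of the lower. Mast cell markers were above 0 for 5 of 6, with 3.84 to 3.90 in knockout and 3.62 to 3.83 in wild type, ranges that nearly touched. The median difference of the mast cell list was -0.01 among the higher codes and 0.19 among the lower. Among these markers Cpa3, a mast cell protease gene, had 4.70, 4.93 and 4.72 in knockout, against 4.21, 4.18 and 4.29 in wild type (difference 0.56, SE 0.10; limma adjusted p = 0.125), while Fcer1a and Ms4a2 lay below the lower quartile and differed by 0.01 and 0.00. Leydig cell markers were above 0 for 5 of 5 (8.996 to 9.50 in knockout, 8.80 to 9.12 in wild type), with a median of 0.35 among the higher codes and -0.09 among the lower, and endothelial markers for 5 of 6 (4.53 to 4.71 in knockout, 4.47 to 4.58 in wild type). Spermatogonia markers had 3 of 6 above 0 (5.89 to 6.17 in knockout, 5.95 to 6.05 in wild type) and epididymis markers 3 of 6 (3.75 to 3.82 in knockout, 3.71 to 3.90 in wild type). The medians of these lists also turned sign between the code sets, with 0.07 among the higher and -0.13 among the lower codes for spermatogonia, and -0.22 and 0.11 for epididymis. Round spermatid markers had 4 of 6 above 0, with a median of 0.02, and elongating spermatid markers 4 of 6, with a median of 0.01. The part of these shifts in the values of Atp13a5 and Atp8b4 was not tested.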

How the data were processed

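Total RNA of whole testis was labelled with biotin and hybridised to Affymetrix arrays, per the labels' protocols. The authors deposited a log2 value for each probe set. Per the submitters' processing notes, Affymetrix Expression Console 1.4.1 was used. That the scale is log2 follows from the range of the values. The sources name neither the summarization, the normalization nor a genome build. Of 45101 probe sets, 64 controls were left out and 45037 tested with no filter. Of these, 34945 had 1 gene symbol, 932 several and 9160 none, and only the first kind was named; 34741 were found by gene identifier in RefSeq GRCm38.p6, and 0 symbols changed. Correlations between arrays ran from 0.990 to 0.998 and the smallest root mean square difference was 0.17, so no array repeated another.

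Knockout minus wild type was fitted with lmFit and eBayes of limma 3.58.1 in R 4.3.3, two-sided, with Benjamini-Hochberg adjustment over all 45037 and a threshold of 0.05. The method was tested on simulated data. The simulated arrays were drawn independently and without differences along title codes, so that test does not cover such differences. In lists, the probe set with the highest mean stood for a gene. Named were all members, Phf13, the 2 genes with the smallest p of each pathway list, chromosome neighbours and the 5 genes most alike. Genes named outside this rule were chosen after their values were seen. They were Slc7a2 (its values), Cpa3, Fcer1a, Ms4a2, Fabp4, Cidec, Lep and the myoid and stromal markers. The members and lists were chosen with earlier results of these data known. Same-numbered arrays were not taken as pairs: the correlations of their deviations were 0.258, 0.0658 and 0.118.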

Additional observations from a re-analysis of the deposited data

How the results depend on the processing

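The number of arrays and the dim wild-type level of Atp13a5 limit these results. Over all probe sets, 25 passed as higher and 20 as lower. With array weights 1654 and 1532 passed, with an intensity trend and robust moderation 66 and 44, and with the 3 runs of title codes as a block 12 and 4. The fit with these runs takes nothing from wild type 1, alone in its run, so it also rests on fewer arrays. With the replicate number as a block 6 passed as lower, and among probe sets above the median level 42 did. Leaving out 1 array gave 8 to 178 higher and 4 to 998 lower, the highest of each without wild type 3. When knockout 1 was left out, 140 were higher; each of the other 4 arrays (knockout 2 and 3, wild type 1 and 2) left 8 to 12 higher and 4 to 8 lower.

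The calls of Atp13a5 and Atp8b4, which were chosen for their differences, are given as a description and nothing is read from them. Of the members, 3 probe sets passed; 1 passed with the code runs as a block (1436411_at of Atp13a5) and 1 above the median level, where Atp13a5 was not tested, and 2 to 3 when 1 array was left out. Without knockout 3, 1439172_at of Atp13a5 missed the threshold, with a difference of 2.24. The replicate block changed no member's call, leaving 3. Over all fits, 1436411_at differed by 3.73 to 3.98, 1439172_at by 2.07 to 2.49 and 1439814_at of Atp8b4 by 2.50 to 2.88. Averaging the probe sets of each gene gave 3.09 for Atp13a5 and 1.30 for Atp8b4. The probe sets of the other 7 genes passed in 0 of these fits.

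The genes of the pathway lists, with 0 calls, had 7 with array weights and 1 each above the median level, with quantile normalization, with median centring and with the intensity trend. Leaving out 1 array gave 0 to 1. Where 1 gene passed, it was Arg2, also without wild type 3 and without knockout 2. Among the neighbours, 1 gene passed with array weights, Hes1 (limma adjusted p = 0.0385). In that fit 1654 of all 45037 probe sets passed as higher and 1532 as lower. The 7 list genes and Hes1 are thus not read as a result about these genes.

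Some small differences changed sign. With array weights, 1443868_at of Atp13a3 differed by -0.048, 1452450_at of Atp8b2 by -0.080 and 1445522_at of Atp8b4 by 0.022. Over all fits 1453673_at of Atp13a4, at 0.00, ran from -0.15 to 0.15. With the code runs, 1443868_at differed by -0.011 and Atp8b1 by -0.010. With quantile normalization, 1441699_at of Atp8b2 differed by -0.021. Leaving out arrays, 1452747_at of Atp13a2 ran from -0.113 to 0.0067, 1434513_at of Atp13a3 from -0.065 to 0.30, 1443868_at from -0.073 to 0.09, and for Atp8b2 1452450_at ran from -0.067 to 0.10 and 1441699_at from -0.087 to 0.088. The cause was not tested.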
